A study of Mus musculus with 14 samples.

Results

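The 50 genes described here are imprinted genes of the mouse, which are transcribed mainly from the allele inherited from 1 parent, at least in some tissues. They were taken from a list of names, and those with a mean above 0.2 FPKM over the 8 RNA-seq samples were analysed. All 50 had an entry among the 41204 genes of the RNA-seq table. The filter was passed by 43 of them, and by 15430 genes in all. The members analysed were thus selected on their mean FPKM, and the mean itself is no result. By group mean, 40 of the 43 were above 0.2 FPKM in wild-type ESCs in 2i + LIF (not H19, Nap1l5 and Zim1), 42 in wild-type ESCs in PD + LIF (not Kcnq1ot1), and 43 in each group of Trincr1-/- ESCs. Just inside the filter were Nap1l5 (0.213 FPKM over the 8 samples) and Kcnq1ot1 (0.224). Just outside were Airn (0.168) and Asb4 (0.141), followed by Kcnq1 (0.128), Klf14 (0.0678), Magel2 (0.0674) and Calcr (0.0551), while Rasgrf1 was listed at 0 in every sample.

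The study asked what the lncRNA Trincr1 (Gm2694) does in embryonic stem cells (ESCs). Poly(A) RNA was sequenced from mouse ESCs of a C57BL/6(F) x 129/sv(M) cross, grown without feeder cells on gelatin, with 4 groups of 2 samples each. Wild-type and Trincr1-/- ESCs were grown in 2i + LIF (N2B27 medium with 1 µM of the MEK inhibitor PD0325901, 3 µM of the GSK3 inhibitor CHIR99021 and 1000 units per ml of leukemia inhibitory factor). Wild-type and Trincr1-/- ESCs were also kept in 2i + LIF for 24 h and then for 4 days in PD + LIF, the same medium without CHIR99021. All 4 groups therefore had PD0325901 and LIF. Trincr1 was deleted with a pair of guide RNAs. Whether the samples of Trincr1-/- ESCs come from 1 clone or from several is not given in the sources used here, so the genotype and the clone cannot be told apart. That the samples of a group come from separate cultures is not stated either, and the p-values measure the spread between these samples.

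Gm2694 itself had a mean of 7.58 FPKM in wild-type and 0.0377 in Trincr1-/- ESCs in 2i + LIF, and of 6.37 and 1.06 in PD + LIF. The FPKM sums ranged from 497115 to 519651, and the depth, estimated from the steps between low values, from 9.46 to 12.9 M fragments per sample, so that 1 fragment on 1000 bases was worth 0.0775 to 0.106 FPKM. Replicates correlated with Pearson's r of 0.989 to 0.991 on the log2 scale across genes, which are not independent replicates. The ESC markers fixed for the check (Pou5f1, Sox2, Nanog and 7 others) summed to 1954 to 3905 FPKM, with all 10 above 1 FPKM in every group. Their sum was lowest in Trincr1-/- ESCs in PD + LIF, at 1954 and 2155 FPKM, against 2922 and 3220 in wild-type ESCs in that medium.

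Many imprinted genes lie in clusters. In many clusters a control region carries DNA methylation that was placed in only 1 of the parental germ lines. This region decides which allele of the neighbouring genes is transcribed, for instance through an insulator bound by CTCF, as between H19 and Igf2. Another way is a long non-coding RNA that silences genes in cis, such as Kcnq1ot1 and Airn. After fertilization the methylation of control regions is protected by the zinc finger protein ZFP57, which binds the methylated hexamer TGCCGC, together with TRIM28 and DNMT1. Many imprinted genes act on fetal and placental growth, and ESCs are known to vary in imprinted expression between lines and cultures. The deposited values are 1 FPKM per gene and sample, so the parental alleles cannot be separated, and the expressed allele given below for each gene is background knowledge.

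Promoter windows are shown for 5 members, 4 of them picked, with their values known, because they hold the ZFP57 hexamer and were called below: Mest, Meg3 and Zdbf2, whose level in PD + LIF was raised in Trincr1-/- ESCs, and Plagl1, which had the largest fall between media. The last is Igf2, which had the largest genotype difference and none of whose windows holds the hexamer. The Igf2 window shown is its most CpG-rich, with 22 CpG dinucleotides, while its other windows have 6, 10 and 1. Each window is the 250 bases before a transcript start in RefSeq, 5′ to 3′ on the strand of the gene, in GRCm38.p6, with TGCCGC or its reverse complement GCGGCA in capitals. The windows are chr6:30737800-30738049 on the plus strand for Mest, chr12:109540746-109540995 on the plus strand for Meg3, chr1:63200108-63200357 on the plus strand for Zdbf2 (an upstream start), chr10:13090582-13090831 on the plus strand for Plagl1 and chr7:142658805-142659054 on the minus strand for Igf2.
Mest: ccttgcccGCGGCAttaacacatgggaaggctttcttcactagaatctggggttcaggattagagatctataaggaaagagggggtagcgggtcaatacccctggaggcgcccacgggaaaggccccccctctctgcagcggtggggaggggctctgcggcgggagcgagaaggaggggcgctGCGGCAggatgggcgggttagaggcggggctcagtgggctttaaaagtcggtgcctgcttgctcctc
Meg3: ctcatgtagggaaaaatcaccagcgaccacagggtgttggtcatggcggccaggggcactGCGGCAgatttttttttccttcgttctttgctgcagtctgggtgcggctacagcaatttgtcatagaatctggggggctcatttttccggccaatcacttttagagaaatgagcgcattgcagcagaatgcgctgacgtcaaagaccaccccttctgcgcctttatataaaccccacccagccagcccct
Zdbf2: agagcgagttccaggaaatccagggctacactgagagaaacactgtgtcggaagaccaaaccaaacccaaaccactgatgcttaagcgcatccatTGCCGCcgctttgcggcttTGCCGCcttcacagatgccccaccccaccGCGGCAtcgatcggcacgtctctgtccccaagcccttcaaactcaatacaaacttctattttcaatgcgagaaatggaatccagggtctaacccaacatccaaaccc
Plagl1: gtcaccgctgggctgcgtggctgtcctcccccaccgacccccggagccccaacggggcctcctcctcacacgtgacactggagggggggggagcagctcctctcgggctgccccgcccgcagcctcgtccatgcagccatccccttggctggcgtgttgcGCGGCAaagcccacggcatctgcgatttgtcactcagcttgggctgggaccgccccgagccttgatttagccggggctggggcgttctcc
Igf2: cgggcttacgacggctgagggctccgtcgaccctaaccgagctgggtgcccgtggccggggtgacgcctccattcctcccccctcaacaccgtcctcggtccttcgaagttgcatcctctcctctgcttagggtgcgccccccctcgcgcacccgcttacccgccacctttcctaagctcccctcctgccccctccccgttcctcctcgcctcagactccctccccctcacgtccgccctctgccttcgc

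Windows were on record for 41 of the 50 genes, 64 in all, since many genes have several starts. No window was found for H19, Sgce, Impact, Kcnq1, Klf14, Trappc9, Nap1l4, Peg10 and Cdkn1c. The hexamer, searched on both strands, occurred in 10 of the 64 windows (15.6%), against 8.68% of all 32851 windows of the same length. It occurred at 2 or more places in 3 windows (4.69%), against 0.874% of all. These windows belong to Mest, whose pair of windows overlap almost entirely and hold 2 hexamers each, and to Zdbf2, with 3. Mest has a further window, chr6:30733256-30733505, and Zdbf2 one that ends at the listed start of the gene, chr1:63273019-63273268, and neither holds the hexamer, nor does a further window of Meg3, chr12:109545148-109545397. The other windows with a hexamer belong to Calcr, Copg2, Mcts2, Meg3, Nap1l5, Plagl1 and Zim1. The median number of CpG dinucleotides was 11.5 per window, against 6 over all windows, with 15 for genes expressed from the maternal allele and 10 for those expressed from the paternal allele. A match says only that these letters are in the window, and windows of 1 gene are not independent. Methylation and protein binding were not measured.

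More of the members were higher than lower in PD + LIF, and more were higher than lower in Trincr1-/- ESCs in PD + LIF. Differences below are on the scale of log2(FPKM + 1), which understates the change of genes near or under 1 FPKM, and a gene is called with an adjusted p under 0.05 from limma fitted to all 15430 genes. In each medium most of the members did not overlap between genotypes, called or not. A lack of overlap is thus only a description below and no test, and its share over all genes was not counted. From 2i + LIF to PD + LIF in wild-type ESCs, 28 of the 43 members rose, where 30.9% of all genes rose, and 5 fell, where 21.3% of all genes fell. In Trincr1-/- ESCs the same change of medium raised 30 members and lowered 1, against 29.6% of all genes higher and 20.3% lower. Between genotypes in 2i + LIF, 3 members were higher in Trincr1-/- ESCs, against 0.35% of all genes, and 0 were lower, against 0.855%. At an unadjusted p under 0.05 in limma these numbers were 7 and 3, where 2253 of all 15430 genes were under it in either direction. Between genotypes in PD + LIF, 13 members were higher in Trincr1-/- ESCs, against 6.29% of all genes, and 1 was lower, against 5.77%. The genotype difference itself changed between media for 6 members, being larger in PD + LIF for 5, against 0.992% of all genes, and smaller for 1, against 0.817%.

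The median member differed by 0.50 between media in wild-type ESCs, where the median of all genes was 0.08, and by 0.63 in Trincr1-/- ESCs, where it was 0.07. Scaling each sample to the same median moved the median gene to -0.10 in both, and 21 members then rose and 7 fell in wild-type ESCs, and 24 rose and 5 fell in Trincr1-/- ESCs. Between genotypes the median member differed by 0.05 in 2i + LIF and by 0.24 in PD + LIF, where the median of all genes was 0.002 and 0.01. Added up, the 50 genes took 0.167% of the FPKM sum in both samples of wild-type ESCs in 2i + LIF, 0.179% and 0.180% in Trincr1-/- ESCs in 2i + LIF, 0.328% and 0.331% in wild-type ESCs in PD + LIF, and 0.444% and 0.448% in Trincr1-/- ESCs in PD + LIF. The 4 groups did not overlap in this share.

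**Figure D1:**
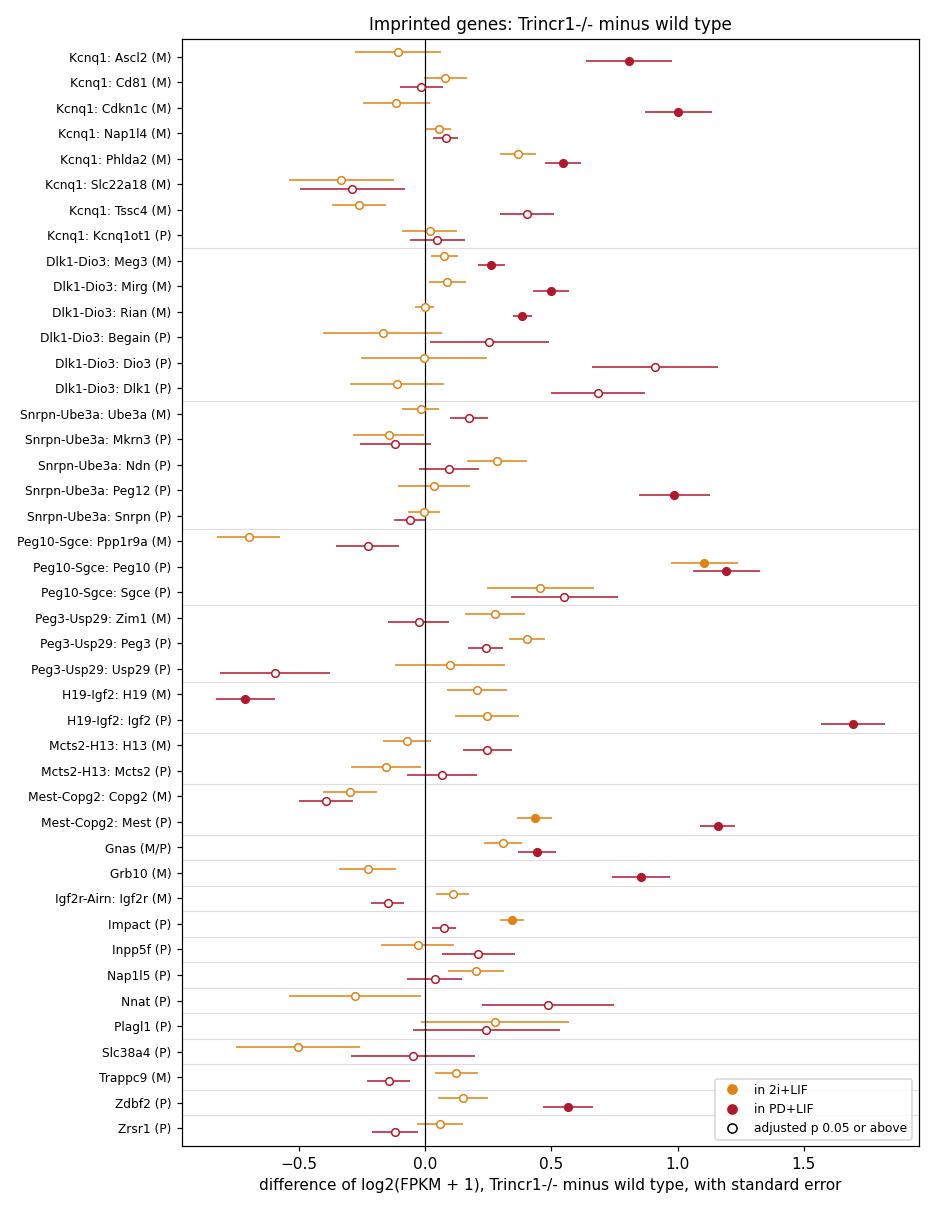
Differences of log2(FPKM + 1) between Trincr1-/- and wild-type ESCs (x axis, with the standard error of the fit) for the 43 imprinted genes analysed, arranged by cluster (y axis, with M for genes expressed from the maternal allele, P for the paternal allele and M/P for Gnas, which has transcripts of either kind). Filled points passed an adjusted p of 0.05: 3 in 2i + LIF, and 14 in PD + LIF, of which only H19 lies to the left of 0.

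By expressed allele, the 14 members called between genotypes in PD + LIF were 8 of the 19 maternally expressed genes (7 higher and 1 lower), 5 of the 23 paternally expressed genes (all higher) and Gnas, whose transcripts come from either allele. Over all genes 6.29% were higher in that comparison and 5.77% lower. The 3 called higher in 2i + LIF, where 0.35% of all genes were higher, are paternally expressed. From 2i + LIF to PD + LIF in wild-type ESCs, 14 of the maternally expressed genes rose and 1 fell, and 13 of the paternally expressed genes rose and 4 fell. Of all genes 30.9% rose and 21.3% fell. The grouping by allele is background knowledge, and which allele these ESCs used was not measured. A difference between the alleles was not tested, and neighbours in a cluster share control regions and are not independent.

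The cluster with the largest changes was that of H19 and Igf2 on chromosome 7. H19 (chr7:142575528-142578143 in GRCm38), a non-coding RNA of the maternal allele, had 0.291 and 0.0504 FPKM in wild-type and 0.388 and 0.299 in Trincr1-/- ESCs in 2i + LIF. In PD + LIF it had 104 and 118 FPKM in wild-type and 68.5 and 66.0 in Trincr1-/- ESCs. H19 was thus close to the worth of a few fragments in 2i + LIF, rose in PD + LIF in both genotypes, and was lower in Trincr1-/- ESCs in that medium, with no overlap between genotypes. The rise was 6.59 ± 0.12 (SE) on the log2 scale in wild-type ESCs (adjusted p = 1.35e-06) and 5.67 ± 0.12 in Trincr1-/- ESCs (adjusted p = 7.91e-07). The genotype difference in PD + LIF was -0.71 ± 0.12 (adjusted p = 0.0126), and it differed from that in 2i + LIF by -0.92 ± 0.17 (adjusted p = 0.0476). Without any 1 of the 4 samples in PD + LIF, the adjusted p of the genotype difference was 0.0559 to 0.0848, and with a pseudocount of 0.1 it was 0.287, so that 0 members were then called lower in Trincr1-/- ESCs in PD + LIF (2 were lower at an unadjusted p under 0.05 in limma with that pseudocount).

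Igf2 (chr7:142650765-142666816), which encodes the fetal growth factor IGF2 and is expressed from the paternal allele, had 0.616 and 0.402 FPKM in wild-type and 0.774 and 0.791 in Trincr1-/- ESCs in 2i + LIF. In PD + LIF it had 52.0 and 65.3 FPKM in wild-type and 202 and 180.5 in Trincr1-/- ESCs. Igf2 moved with H19 between media and, in PD + LIF, against it between genotypes. In 2i + LIF both lay under 1 FPKM, and their genotype differences of 0.21 for H19 and 0.24 for Igf2 were not called. Its rise between media was 5.30 ± 0.13 in wild-type (adjusted p = 1.98e-06) and 6.75 ± 0.13 in Trincr1-/- ESCs (adjusted p = 6.6e-07), and its genotype difference in PD + LIF was 1.70 ± 0.13 (adjusted p = 0.0017), a ratio of means of 3.26. That difference was larger than the one in 2i + LIF by 1.45 ± 0.18 (adjusted p = 0.0262). Igf2 FPKM divided by H19 FPKM was 0.499 and 0.554 in wild-type and 2.95 and 2.73 in Trincr1-/- ESCs in PD + LIF, while the sum of both genes was 156 and 183 against 271 and 246 FPKM. The antisense gene Igf2os, which overlaps Igf2, had means of 0.926 FPKM in wild-type and 3.28 in Trincr1-/- ESCs in PD + LIF, and since strand use in the counting is not stated, reads of the pair cannot be told apart.

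**Figure D2:**
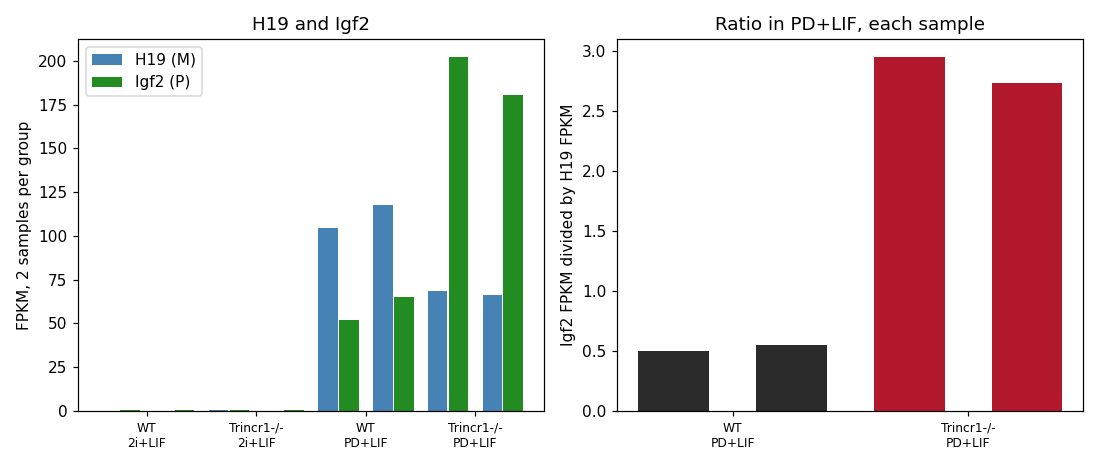
Left, FPKM of H19 and Igf2 in each of the 8 samples (y axis, 2 samples per group on the x axis, bars from 0). Right, Igf2 FPKM divided by H19 FPKM in the 4 samples in PD + LIF, where H19 is the higher of the pair in wild-type ESCs (0.499 and 0.554) and Igf2 in Trincr1-/- ESCs (2.95 and 2.73).

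The IGF2 axis has further imprinted members. Igf2r, the receptor that clears IGF2 and is expressed from the maternal allele, had 8.94 and 9.24 FPKM in wild-type ESCs in 2i + LIF and 16.1 and 15.7 in PD + LIF, a rise of 0.74 ± 0.07 (adjusted p = 0.000107), and 9.88, 9.88, 14.4 and 14.1 in Trincr1-/- ESCs in the same order of media. Airn, the antisense RNA whose promoter lies in Igf2r, was listed at 0 in all 4 samples in 2i + LIF and at 0.0735 to 0.649 FPKM in PD + LIF. Grb10 (chr11:11930507-12038683), an adapter that restrains insulin and IGF1 receptor signaling, had 11.6 and 11.4 FPKM in wild-type and 8.87 and 10.5 in Trincr1-/- ESCs in 2i + LIF. In PD + LIF it had 20.3 and 25.0 FPKM in wild-type and 43.3 and 39.9 in Trincr1-/- ESCs. Grb10 was thus higher in both samples of Trincr1-/- ESCs in PD + LIF than in either wild-type sample. The difference was 0.85 ± 0.11 (adjusted p = 0.00681, and 0.0633 without replicate 1 of Trincr1-/- ESCs in PD + LIF), and it exceeded that in 2i + LIF by 1.08 ± 0.16 (adjusted p = 0.031). Plagl1 (chr10:13090690-13131694), a zinc finger transcription factor expressed from the paternal allele, went the other way between media. It had 32.9 and 34.1 FPKM in wild-type ESCs in 2i + LIF and 2.00 and 1.82 in PD + LIF, a fall of -3.57 ± 0.29 (adjusted p = 7.85e-05), and in Trincr1-/- ESCs it had 38.7 and 42.9 and then 1.38 and 3.98, a fall of -3.60 ± 0.29 (adjusted p = 7.34e-05). In PD + LIF the genotypes overlapped in Plagl1.

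In the Kcnq1 cluster on chromosome 7, 3 members expressed from the maternal allele, Cdkn1c, Phlda2 and Ascl2, rose in PD + LIF in both genotypes and were called between genotypes in that medium, each with the greater level in Trincr1-/- ESCs. Cdkn1c (chr7:143458349-143461050), which encodes the CDK inhibitor p57, had 2.11 and 2.02 FPKM in wild-type and 1.60 and 2.08 in Trincr1-/- ESCs in 2i + LIF, then 42.7 and 34.9 in wild-type and 72.1 and 85.1 in Trincr1-/- ESCs in PD + LIF. The groups overlapped in 2i + LIF and were apart in PD + LIF. It rose by 3.69 ± 0.13 in wild-type ESCs (adjusted p = 5.41e-06), and the genotype difference in PD + LIF was 1.00 ± 0.13 (adjusted p = 0.00681), which exceeded that in 2i + LIF by 1.12 ± 0.19 (adjusted p = 0.0397). Phlda2, a small protein that limits placental growth, had 17.6 and 17.6 FPKM in wild-type and 22.2 and 23.9 in Trincr1-/- ESCs in 2i + LIF, then 83.0 and 77.5 against 111 and 125 in PD + LIF. Its genotype difference in PD + LIF was 0.55 ± 0.07 (adjusted p = 0.00656), while the 0.37 ± 0.07 in 2i + LIF did not pass (adjusted p = 0.0688). Ascl2, a transcription factor needed in trophoblast, had 0.773 and 0.773 FPKM in wild-type and 0.472 and 0.838 in Trincr1-/- ESCs in 2i + LIF, then 3.47 and 2.63 against 5.45 and 6.72 in PD + LIF. Its genotype difference of 0.81 ± 0.17 in PD + LIF passed (adjusted p = 0.0272), but not without any 1 of the 4 samples in PD + LIF or of the pair of wild-type samples in 2i + LIF (adjusted p = 0.0516 to 0.122).

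The rest of the Kcnq1 cluster was not called between genotypes. Cd81, which encodes a tetraspanin, had a mean of 93.8 FPKM in wild-type ESCs in 2i + LIF and 156 in PD + LIF, a rise of 0.73 ± 0.09 (adjusted p = 0.000399), with genotype differences of 0.08 and -0.02. Nap1l4, a histone chaperone, stayed between 65.3 and 72.7 FPKM in the 8 samples and passed no comparison. Tssc4 had 21.5 and 22.8 FPKM in wild-type ESCs in 2i + LIF and 15.3 and 19.4 in PD + LIF, a fall of -0.34 ± 0.11 (adjusted p = 0.029, and up to 0.133 without 1 sample), and 18.0 and 18.6 and then 23.9 and 22.3 in Trincr1-/- ESCs, a rise of 0.32 ± 0.11 (adjusted p = 0.038, and up to 0.167 without 1 sample). Its genotype difference in PD + LIF of 0.40 ± 0.11 missed the threshold (adjusted p = 0.0512). Slc22a18, a membrane transporter, ranged from 1.83 to 5.99 FPKM and passed only between media in Trincr1-/- ESCs (0.61 ± 0.21, adjusted p = 0.044), a call that was lost in 11 of 19 alternatives, with 0.37 (adjusted p = 0.227) without replicate 2 of Trincr1-/- ESCs in 2i + LIF. Kcnq1ot1, the paternal antisense RNA of the cluster, stayed between 0.165 and 0.285 FPKM, and Kcnq1, a potassium channel that it overlaps, between 0 and 0.257. Both lie near the level of a few fragments, and the deposited values do not separate overlapping strands.

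In the Dlk1-Dio3 cluster on chromosome 12, the 3 non-coding RNAs of the maternal allele, Rian, Meg3 and Mirg, were called in the same direction between genotypes in PD + LIF and between media, to unequal degrees. The rise of Mirg between media in wild-type ESCs was not called after median scaling (0.02, adjusted p = 0.865 in limma). In Trincr1-/- ESCs its rise was called in every alternative fit. Rian (chr12:109603939-109661716), a host of small nucleolar RNAs, had 155 and 162 FPKM in wild-type and 159 and 157 in Trincr1-/- ESCs in 2i + LIF, then 221 and 223 against 295 and 285 in PD + LIF. The genotypes overlapped in 2i + LIF and were apart in PD + LIF. Its difference there was 0.39 ± 0.04 (adjusted p = 0.0028), and exceeded that in 2i + LIF by 0.39 ± 0.05 (adjusted p = 0.0277). Meg3 (chr12:109541000-109571726), the lincRNA at the start of this transcribed stretch, had 109 and 102 FPKM against 110.1 and 113 in 2i + LIF, and 188 and 204 against 239.9 and 230.4 in PD + LIF. Its genotype difference in PD + LIF was 0.26 ± 0.05 (adjusted p = 0.0265) and did not pass without replicate 1 of wild-type or either replicate of Trincr1-/- ESCs in that medium (adjusted p = 0.075 to 0.147). Mirg, a host of microRNAs, had 19.3 and 19.1 against 19.6 and 21.3 FPKM in 2i + LIF, and 22.1 and 23.9 against 31.5 and 34.4 in PD + LIF, a genotype difference of 0.50 ± 0.07 (adjusted p = 0.00848, and 0.0582 without replicate 1 of wild-type ESCs in that medium). Rian FPKM divided by Meg3 FPKM was 1.40 to 1.58 in the 4 samples in 2i + LIF and 1.09 to 1.24 in the 4 in PD + LIF, while Meg3 divided by Mirg was 5.29 to 5.65 and 6.70 to 8.54.

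The paternally expressed genes of the cluster were low. Dlk1, a transmembrane protein related to Notch ligands, had 0.422 and 0.305 FPKM in wild-type and 0.389 and 0.143 in Trincr1-/- ESCs in 2i + LIF, then 0.702 and 0.325 against 1.16 and 1.70 in PD + LIF, where the genotype difference of 0.69 ± 0.19 missed the threshold (adjusted p = 0.0555). Dio3, which inactivates thyroid hormone, had 3.89 and 4.49 FPKM in wild-type ESCs in 2i + LIF and 1.68 and 1.24 in PD + LIF, a fall of -1.08 ± 0.25 (adjusted p = 0.00913, and 0.0576 and 0.0636 without replicate 2 of either wild-type group), and 4.46, 3.89, 2.48 and 5.10 in Trincr1-/- ESCs. The last 2 values lie far apart, and the genotype difference in PD + LIF of 0.91 ± 0.25 did not pass (adjusted p = 0.0581). Begain ranged from 0.558 to 1.73 FPKM and passed no comparison.

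In the Peg10-Sgce cluster on chromosome 6, Peg10 was higher in Trincr1-/- ESCs in both media. Peg10 (chr6:4747305-4760517), a gene derived from a retrotransposon, expressed from the paternal allele and required for the placenta, had 8.96 and 7.40 FPKM in wild-type and 17.6 and 19.9 in Trincr1-/- ESCs in 2i + LIF, then 103 and 83.6 against 198 and 230.3 in PD + LIF. The genotypes did not overlap in either medium. The genotype difference was 1.11 ± 0.13 in 2i + LIF (adjusted p = 0.0124) and 1.19 ± 0.13 in PD + LIF (adjusted p = 0.0037), ratios of means of 2.29 and 2.30, and the rise between media in wild-type ESCs was 3.36 ± 0.13 (adjusted p = 5.59e-06). Without any 1 of the samples in 2i + LIF, the difference in that medium had an adjusted p of 0.0595 to 0.109. Its neighbour Sgce, which encodes epsilon-sarcoglycan and starts close to Peg10 on the other strand, had 0.451 and 0.927 against 1.16 and 1.43 FPKM in 2i + LIF, and 6.39 and 9.64 against 12.99 and 11.1 in PD + LIF. Sgce rose by 2.41 ± 0.21 in wild-type ESCs (adjusted p = 0.000107), and its genotype differences of 0.46 and 0.55 did not pass. Ppp1r9a, the actin-binding protein neurabin, expressed from the maternal allele, had 4.44 and 3.86 against 2.48 and 1.88 FPKM in 2i + LIF, a difference of -0.70 ± 0.13 just outside the threshold (adjusted p = 0.0551), and 8.83 and 9.47 against 8.01 and 7.33 in PD + LIF. Asb4 and the calcitonin receptor gene Calcr had at most 0.240 and 0.184 FPKM in any sample.

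In the Mest-Copg2 cluster on chromosome 6, which holds the pair of genes that overlap at their ends, Mest moved and Copg2 did so less. Mest (chr6:30723546-30748455), a gene of the paternal allele that promotes growth, had 33.8 and 33.0 FPKM in wild-type and 44.9 and 46.1 in Trincr1-/- ESCs in 2i + LIF, then 45.7 and 49.5 against 114 and 101 in PD + LIF. The genotypes were apart in both media. The genotype difference was 0.43 ± 0.07 in 2i + LIF (adjusted p = 0.0385) and 1.16 ± 0.07 in PD + LIF (adjusted p = 0.000942), and the latter was larger by 0.73 ± 0.10 (adjusted p = 0.0277). The difference in 2i + LIF did not pass without any 1 of the samples in 2i + LIF or of the wild-type samples in PD + LIF (adjusted p = 0.08 to 0.205). Copg2, which encodes a subunit of the coatomer coat, had 26.5 and 33.1 against 24.3 and 23.5 FPKM in 2i + LIF and 36.2 and 40.2 against 27.8 and 29.9 in PD + LIF. It rose by 0.36 ± 0.11 between media in wild-type ESCs (adjusted p = 0.026), but not without replicate 1 in 2i + LIF (0.20, adjusted p = 0.122) or replicate 2 in PD + LIF (0.28, adjusted p = 0.144), nor after median scaling (0.12, adjusted p = 0.388). Its genotype difference of -0.39 ± 0.11 in PD + LIF missed the threshold (adjusted p = 0.0552). Mest FPKM divided by Copg2 FPKM was 1.26 and 1.23 in wild-type and 4.12 and 3.38 in Trincr1-/- ESCs in PD + LIF. Klf14, further along, had at most 0.180 FPKM.

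**Figure D3:**
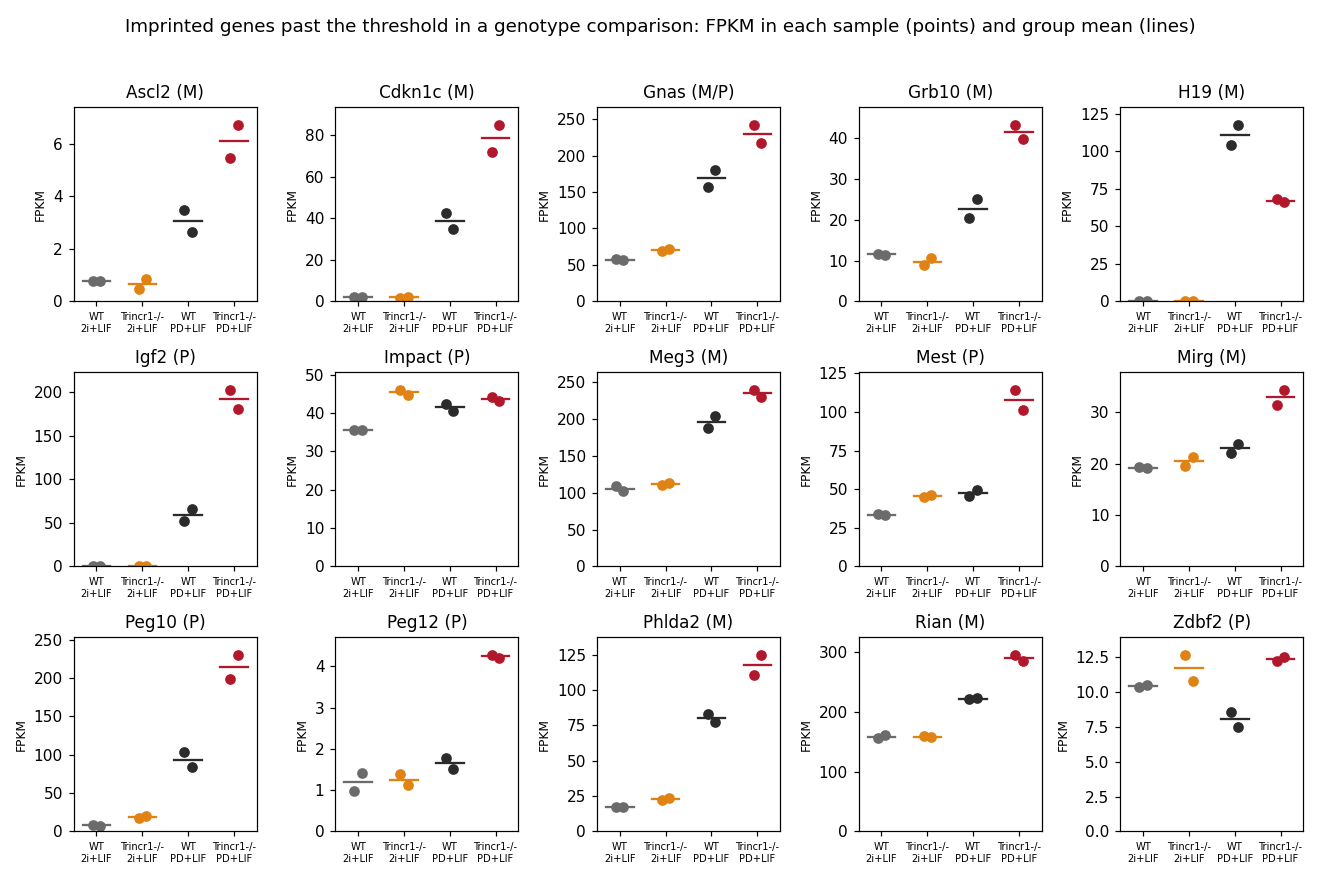
FPKM (y axis, from 0) of the 15 imprinted genes that passed the threshold in a comparison of genotypes or in the test of its change between media, by group (x axis). Each point is 1 sample and each line a group mean, with M, P and M/P for the expressed allele. H19 has its smaller values of PD + LIF in the Trincr1-/- samples, and the 14 others are higher in Trincr1-/- ESCs in the medium in which they passed.

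In the Snrpn-Ube3a cluster on chromosome 7, Peg12 was the member called between genotypes. Peg12 (chr7:62461870-62464510), a relative of the GSK3-binding FRAT proteins, had 0.988 and 1.43 FPKM in wild-type and 1.38 and 1.13 in Trincr1-/- ESCs in 2i + LIF, then 1.79 and 1.51 against 4.28 and 4.21 in PD + LIF. The difference in PD + LIF was 0.99 ± 0.14 (adjusted p = 0.00832, and 0.051 and 0.0641 without replicate 2 of wild-type or replicate 1 of Trincr1-/- ESCs in that medium). Its neighbours were not called between genotypes, with differences in PD + LIF of 0.17 for Ube3a and -0.12 for Mkrn3. Snrpn, a splicing protein, had a mean of 41.3 against 41.1 FPKM in 2i + LIF and 54.2 against 52.0 in PD + LIF, and rose by 0.39 ± 0.06 between media in wild-type ESCs (adjusted p = 0.00169, and 0.0955 after median scaling). Ndn, which encodes necdin, rose from a mean of 2.10 to 5.20 FPKM in wild-type ESCs, by 1.00 ± 0.12 (adjusted p = 0.000417), and Mkrn3, a RING finger protein, from 1.27 to 2.15 FPKM, by 0.47 ± 0.14 (adjusted p = 0.0263, and up to 0.11 without 1 sample). Ube3a, a ubiquitin ligase that is imprinted in neurons and expressed from the maternal allele there, stayed between 10.7 and 14.3 FPKM and passed only between media in Trincr1-/- ESCs (0.30 ± 0.07, adjusted p = 0.0132, and 0.0646 and 0.0741 without replicate 1 in 2i + LIF or replicate 2 in PD + LIF). Magel2 had at most 0.167 FPKM.

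In the Peg3-Usp29 cluster, Peg3, a zinc finger protein of the paternal allele, had 10.2 and 10.6 FPKM in wild-type and 13.9 and 14.2 in Trincr1-/- ESCs in 2i + LIF, then 59.5 and 55.5 against 64.4 and 71.9 in PD + LIF. It was among the members with the steadiest rise between media, by 2.36 ± 0.07 in wild-type ESCs (adjusted p = 3.72e-06). The genotype differences of 0.40 ± 0.07 in 2i + LIF (adjusted p = 0.051) and 0.24 ± 0.07 in PD + LIF (adjusted p = 0.0692) missed the threshold. Zim1, a zinc finger gene of the maternal allele, rose from a mean of 0.171 to 0.965 FPKM in wild-type ESCs, by 0.75 ± 0.12 (adjusted p = 0.00173), and Usp29, a ubiquitin peptidase, from 0.620 to 1.62 FPKM, by 0.66 ± 0.22 (adjusted p = 0.0376). The wild-type samples in PD + LIF had 2.17 and 1.07 FPKM of Usp29, and its rise passed in 1 of the 8 fits that left out a sample, with 0.35 (adjusted p = 0.174) without replicate 1 of that group.

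Of the members outside these clusters, Gnas, Zdbf2 and Impact were called between genotypes, as was Grb10 above. Gnas (chr2:174284319-174346744), which encodes the stimulatory G protein alpha subunit, had 57.6 and 56.4 FPKM in wild-type and 69.3 and 72.4 in Trincr1-/- ESCs in 2i + LIF, then 157 and 179.9 against 242 and 217 in PD + LIF. The genotype difference in PD + LIF was 0.44 ± 0.08 (adjusted p = 0.0147, and 0.0753 and 0.0968 without replicate 1 of either genotype in that medium). Zdbf2 (chr1:63273264-63314576), a zinc finger gene of the paternal allele, had 10.3 and 10.5 against 12.7 and 10.8 FPKM in 2i + LIF, and 8.61 and 7.52 against 12.3 and 12.5 in PD + LIF. It fell by -0.34 ± 0.10 between media in wild-type ESCs (adjusted p = 0.0237), and was higher in Trincr1-/- ESCs in PD + LIF by 0.56 ± 0.10 (adjusted p = 0.0154). Neither held in every fit that left out 1 sample, with adjusted p up to 0.126 for the medium and up to 0.0898 for the genotype. Impact, which restrains the kinase GCN2, had 35.6 and 35.4 against 46.0 and 44.7 FPKM in 2i + LIF, a difference of 0.34 ± 0.05 (adjusted p = 0.0229), and 42.3 and 40.6 against 44.2 and 43.1 in PD + LIF. Its difference in 2i + LIF had an adjusted p of 0.0535 to 0.138 without 1 sample. Impact rose by 0.22 ± 0.05 between media in wild-type ESCs (adjusted p = 0.00707), which became -0.02 after scaling to the median.

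The other single genes changed between media or not at all. Nnat, a membrane proteolipid, had 2.37 and 2.23 against 2.58 and 1.06 FPKM in 2i + LIF and 12.7 and 10.6 against 19.6 and 14.1 in PD + LIF, and rose by 1.93 ± 0.26 in wild-type ESCs (adjusted p = 0.000769). Slc38a4, an amino acid transporter, rose from a mean of 10.2 to 26.7 FPKM by 1.28 ± 0.25 (adjusted p = 0.00393), with 32.6 and 20.8 FPKM in the pair of wild-type samples in PD + LIF. Trappc9, a subunit of the TRAPP tethering complex, rose from 6.23 to 9.71 FPKM by 0.57 ± 0.09 (adjusted p = 0.00124), and Inpp5f, an inositol phosphatase, from 3.04 to 4.34 FPKM by 0.42 ± 0.15 (adjusted p = 0.0459). The rise of Inpp5f passed in 1 of the 8 fits that left out a sample and was 0.22 (adjusted p = 0.222) without replicate 2 of wild-type ESCs in 2i + LIF. Mcts2, a retrogene in an intron of H13, had 21.4 and 24.1 FPKM in wild-type ESCs in 2i + LIF and 18.8 and 15.0 in PD + LIF, a fall of -0.42 ± 0.14 (adjusted p = 0.0391, and up to 0.218 without 1 sample), with 21.3 and 19.2 and then 19.7 and 15.7 in Trincr1-/- ESCs. H13, the signal peptide peptidase, stayed between 11.7 and 16.0 FPKM, Zrsr1, a splicing factor, between 4.54 and 5.67, and Nap1l5 between 0.0984 and 0.293, and none of these 3 passed a comparison. Mcts2, Nap1l5, Nnat and Zrsr1 each lie within a gene or overlap one (H13, Herc3, Blcap and Commd1), so part of their reads may belong to it.

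**Figure D4:**
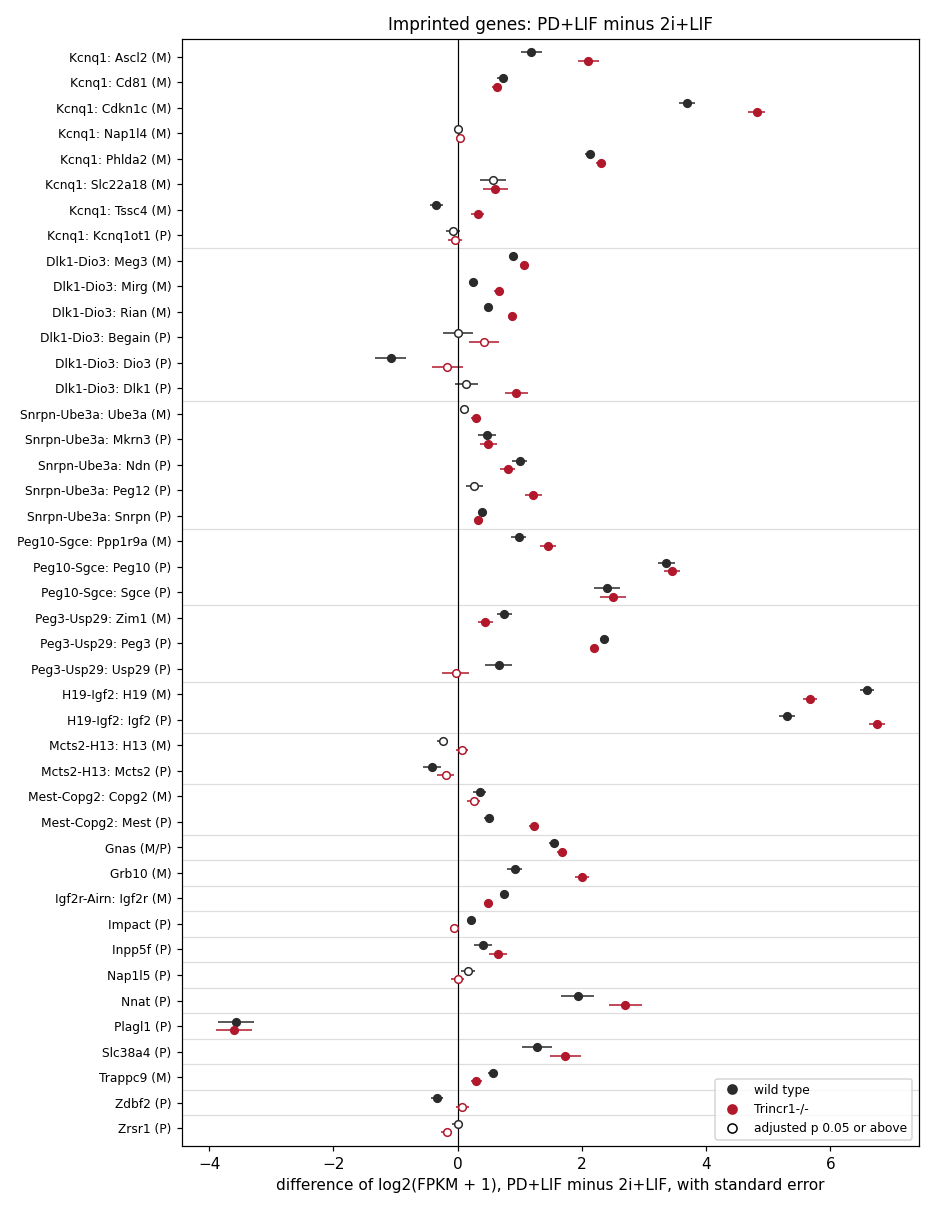
Differences of log2(FPKM + 1) between PD + LIF and 2i + LIF (x axis, with the standard error of the fit) in wild-type and in Trincr1-/- ESCs for the 43 imprinted genes analysed, arranged by cluster (y axis, with M, P and M/P for the expressed allele). H19 and Igf2 lie farthest to the right, at 6.59 and 5.30 in wild-type and 5.67 and 6.75 in Trincr1-/- ESCs, and Plagl1 farthest to the left, at -3.57 and -3.60.

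Within the genotype comparison in PD + LIF, Igf2, Mest, Peg10 and Rian passed under every one of the 19 alternative fits, which left out each sample in turn or changed the pseudocount, filter, normalization or model. When the model held only the 4 samples in PD + LIF, 6 members passed in place of 14. The test of the change of the genotype difference between media is less certain. None of its member calls held once any 1 of the 8 samples was left out. When the replicate number was added to the model, 0 of its 6 members passed. In that fit 17 of the 43 members and 2727 of all 15430 genes were at an unadjusted p under 0.05 in limma.

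The genes that write, read or erase imprints were measured from a list of 24, of which 23 passed the filter. Between genotypes in 2i + LIF, 0 of the 23 passed. At an unadjusted p under 0.05 in limma were 4 of the 23 and 2253 of all 15430 genes, a similar share. In PD + LIF 4 of the 23 were higher in Trincr1-/- ESCs and 2 lower, against 6.29% and 5.77% of all genes. Dnmt3b, a de novo DNA methyltransferase, had 65.4 and 79.4 FPKM in wild-type and 137 and 122 in Trincr1-/- ESCs in PD + LIF (0.83 ± 0.09, adjusted p = 0.00389). Dppa3, which protects methylation in the early embryo, had 185 and 165 against 82.0 and 93.9 FPKM (-0.99 ± 0.13, adjusted p = 0.00634). Tet3, which oxidizes methylcytosine, had 2.22 and 2.16 against 4.15 and 3.75 FPKM (0.63 ± 0.14, adjusted p = 0.029). The remaining 3 were Dnmt3l and Trim28, higher by 0.37 and 0.26, and Tet1, with a difference of -0.30. From 2i + LIF to PD + LIF in wild-type ESCs 7 of the list rose and 9 fell, against 30.9% and 21.3% of all genes, led by Tet2 (17.3 and 17.3 to 2.95 and 2.96 FPKM, -2.21) and Dppa3 (44.1 and 34.3 to 185 and 165 FPKM, 2.14), while Zfp57 fell from 244 and 245 to 128 and 141 FPKM (-0.86).

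A further list of 35 imprinted genes outside the 50 had 31 in the table and 23 above the filter. Between genotypes in PD + LIF, 2 of the 23 were higher in Trincr1-/- ESCs and 1 lower, against 6.29% and 5.77% of all genes. The higher were the Polycomb-type gene Sfmbt2 (15.0 and 13.5 against 24.6 and 28.6 FPKM, 0.86) and Bcl2l1, an apoptosis inhibitor (28.0 and 29.0 against 40.7 and 40.4 FPKM, 0.49), and the lower was Cobl, an actin nucleator (7.05 and 7.70 against 4.42 and 3.38 FPKM, -0.78). From 2i + LIF to PD + LIF in wild-type ESCs 4 of the 23 rose, against 30.9% of all genes, and 5 fell, against 21.3%, with the largest differences in Cobl (-2.36), Ddc (-1.87) and Sfmbt2 (1.45). In 2i + LIF, 0 passed between genotypes, with 6 of the 23 at an unadjusted p under 0.05 in limma, against 2253 of all 15430 genes.

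Markers of other cell types moved with the same comparisons, and their part in the results was not tested. In bulk RNA, fewer cells of a type and less RNA per cell cannot be told apart. Of 10 ESC markers, 5 fell between genotypes in PD + LIF, against 5.77% of all genes, and 0 rose, against 6.29%. The 5 were Dppa5a (-0.93), Esrrb (-0.57), Nanog (-0.47), Sox2 (-0.29) and Pou5f1 (-0.20). Between media in wild-type ESCs 8 fell, against 21.3% of all genes, and 1 rose, against 30.9%, namely Sox2 from 149 and 144 to 185 and 173 FPKM. The 10 trophoblast markers, of which Ascl2 is also a member, summed to 17.5 to 23.9 FPKM in 2i + LIF, to 54.2 and 65.3 in wild-type and 52.2 and 61.0 in Trincr1-/- ESCs in PD + LIF, with Prl3d1 and Tpbpa at 0 in every sample. Most of that sum was Tfap2c, with 49.0 and 42.1 against 33.9 and 38.9 FPKM in PD + LIF. Between genotypes in PD + LIF, 2 of the 7 trophoblast markers tested were called higher, against 6.29% of all genes, and 0 lower, against 5.77%. The 2 were Ascl2 and Hand1 (0.465 and 0.481 against 2.82 and 2.92 FPKM), while Eomes, not called, had 1.46 and 1.63 against 0.813 and 0.953 FPKM. Between media, 5 of the 7 rose in each genotype, against 30.9% and 29.6% of all genes, among them Krt7 and Gata3. Krt7 went from 0.0740 and 0.0636 to 7.89 and 4.46 FPKM in wild-type ESCs. Cdx2 and Eomes fell in both, against 21.3% and 20.3%, in wild-type ESCs from 0.727 and 0.766 to 0.104 and 0.0416 FPKM for Cdx2. Between genotypes in 2i + LIF, 1 of the 7 and 1 of 6 fibroblast markers were called higher in Trincr1-/- ESCs, against 0.35% of all genes. Cdx2 had 2.60 and 3.43 FPKM in Trincr1-/- ESCs there, and Fbln2 0.429 and 0.613 against 1.72 and 1.62. The 10 fibroblast markers summed to 1.43 to 2.74 FPKM in 2i + LIF and to 11.2 and 14.0 in wild-type and 16.5 and 19.6 in Trincr1-/- ESCs in PD + LIF, most of it Acta2 (5.96 to 11.5 FPKM), with Dcn, Lum and Col3a1 at most 0.485 in any sample. Of the 6 tested, 3 rose between media in wild-type and 4 in Trincr1-/- ESCs, against 30.9% and 29.6% of all genes. In both genotypes 0 fell, against 21.3% and 20.3%. Between genotypes in PD + LIF, 1 of the 6 was higher in Trincr1-/- ESCs (6.29% of all genes) and 0 lower (5.77%). Col1a1 had 0.373 and 0.446 FPKM in wild-type and 1.95 and 1.82 in Trincr1-/- ESCs there. The 10 extraembryonic endoderm markers summed to 6.35 to 6.84 FPKM in 2i + LIF, to 7.81 and 9.11 in wild-type and to 9.49 and 10.1 in Trincr1-/- ESCs in PD + LIF, with Afp and Ttr at 0 in every sample. Most of the sum in 2i + LIF was Lama1, which went from a mean of 5.14 to 3.53 FPKM in wild-type ESCs, while Dab2 went from 0.190 to 2.06. Of the 4 tested, 2 rose and 1 fell between media in wild-type ESCs, and 3 rose and 1 fell in Trincr1-/- ESCs. Of all genes 30.9% and 29.6% rose, and 21.3% and 20.3% fell. Between genotypes in PD + LIF, 1 of the 4 was higher in Trincr1-/- ESCs (6.29% of all genes) and 0 lower (5.77%).

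RNA was also pulled down with a FLAG antibody from ESCs that overexpressed FLAG-tagged TRIM71, in 2i + LIF, with UV crosslinking by the study's methods. It was compared with its input for the members, to see whether this RNA-binding protein, which binds Trincr1, holds imprinted transcripts. The ratios therefore belong to overexpressed TRIM71. The deposited table has 1 value for the IP and 1 for the input, so no fold has an error or a test, and the depth is unknown. It lists 36 of the 50 genes, 23 of them with an input above 2 FPKM. The genes were matched by name. The pulldown entries of Rian and Mirg have other gene identifiers than their RNA-seq entries, so the gene models may differ. Of these 23, 1 had a scaled IP above 3 times the input, against 5.1% of all 9651 transcripts above that input. This was Trappc9, with 11.9 FPKM in the input and 28.2 in the IP before scaling, a scaled ratio of 5.33, but 2.37 without the scaling. The IP was listed at 0 for 10 of the 23 (43.5%), among them Meg3, Rian, Snrpn and Mcts2 with an input of 9.2 to 24.3 FPKM, against 46.4% of all. The median scaled ratio was 0.105 for the 23 and 0.0571 for all. Of the 13 members with a greater level in Trincr1-/- ESCs in PD + LIF, 6 had an input above the cutoff: Gnas, Grb10 and Mest, with scaled ratios of 0.904, 0.464 and 0.912, and Meg3, Rian and Phlda2, with an IP listed at 0. Sgce had a ratio of 14.9 at an input of 1.0 FPKM, under the cutoff.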

How the data were processed

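Poly(A) RNA-seq of 8 samples and RNA immunoprecipitation with FLAG-TRIM71 were analysed. The authors aligned reads with STAR 2.5.0 and deposited normalized FPKM values from Cufflinks 2.2.1. The methods name mm9, but the gene positions in the table are those of GRCm38 (44 of the 50 members within 5000 bases). For the pulldown the authors deposited pooled FPKM columns and scaled columns, treated as a score, in which the IP is multiplied by 2.25. The authors' folds of enrichment and the empty-vector IP were not used here.

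Of 41260 entries, 39 identifiers had several, and the one with the highest mean was kept. Log2(FPKM + 1) of 15430 genes (mean above 0.2 FPKM) was fitted with limma 3.58.1 (R 4.3.3), 4 groups in 1 model with a variance trend (4 residual degrees of freedom). P-values were adjusted by Benjamini-Hochberg over all these genes, with a threshold of 0.05. On simulated data of the genotype comparison in PD + LIF over 15430 genes, 197 of 200 genes changed by 2 on the log2 scale were recovered, with 5 false calls. Recovery of smaller differences was not tested, and the largest genotype difference of a member in PD + LIF was 1.70, for Igf2. Bound meant an input above 2 FPKM and a scaled ratio above 3. Tables and plots used pandas 2.3.3, numpy 2.4.6 and matplotlib 3.10.9 under Python 3.11.15. Every member is named, with sample values where it passed a genotype comparison or had 1 of the 5 largest rises or falls between media in wild-type ESCs, and for other members where they help to read a cluster. The members, gene lists and alternatives were chosen with earlier results of these data known. RefSeq windows matched 41 members by symbol.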

Additional observations from a re-analysis of the deposited data

Results flagged for a closer look

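For 6 members the difference between Trincr1-/- and wild-type ESCs changed between media by the interaction test of limma, and these values are the genotype difference in PD + LIF minus that in 2i + LIF on the scale of log2(FPKM + 1). They were 1.45 for Igf2 (adjusted p = 0.0262), 1.12 for Cdkn1c (adjusted p = 0.0397), 1.08 for Grb10 (adjusted p = 0.031), 0.73 for Mest (adjusted p = 0.0277) and 0.39 for Rian (adjusted p = 0.0277), and -0.92 for H19 (adjusted p = 0.0476). Over the alternatives the adjusted p ranged from 0.018 to 0.107 for Igf2, from 0.0295 to 0.13 for Cdkn1c and from 0.035 to 0.193 for H19. With 2 samples per group, no group was large enough to be searched for a sample that stands apart.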

How the results depend on the processing

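The counts of imprinted genes called depended on the fit, most of all where the genotypes were compared. In 2i + LIF the 3 members called became 5 with a pseudocount of 0.1 or a filter at a mean of 1 FPKM, 1 without a filter, without the variance trend or by the 2-fold rule of the study, 0 with only the groups compared (12 members at an unadjusted p under 0.05 in limma), and 0 to 2 without 1 sample. In PD + LIF the 14 became 6 with only the groups compared, 7 by the 2-fold rule and 9 to 14 without 1 sample. For the change of the genotype difference between media the 6 became 3 with a pseudocount of 0.1, 2 without a filter, 1 without the variance trend, 0 with the replicate number as a block (17 members at an unadjusted p under 0.05) and 0 without any 1 sample. Over all genes, 186 were called between genotypes in 2i + LIF and 1861 in PD + LIF, and 0 and 316 with only the groups compared (2106 in 2i + LIF at an unadjusted p under 0.05 in limma). Between media the 33 members called in wild-type ESCs became 16 and the 31 in Trincr1-/- ESCs 18 by the 2-fold rule, and 26 to 31 and 27 to 31 without 1 sample. Of the 87 calls of members, 49 passed in every fit tried, and 1 changed sign, Impact between media in wild-type ESCs, at -0.0223 after median scaling. Median scaling also turned the share of all calls that were higher in PD + LIF in wild-type ESCs from 59.2% to 39.0%. The 1 bound member became 0 with unscaled pulldown values. In other alternatives the counts stayed within 1.5 times.

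Replicate numbers did not pair the samples: deviations of same-numbered samples correlated at -0.0539 to 0.00634, and with the replicate number as a block 2, 15, 31 and 30 members were called for the genotype in 2i + LIF, the genotype in PD + LIF, and the medium in wild-type and in Trincr1-/- ESCs. With 2 samples per group and about 9.46 to 12.9 M fragments, members under 1 FPKM rest on few fragments, and the depth of the pulldown is unknown.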

Other observations

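Some genes that overlap members were listed with levels of their own. Gm3150, a pseudogene within Trappc9, was listed at 0 in all samples in 2i + LIF, and in PD + LIF its group means were 3.08 FPKM for wild-type and 7.02 FPKM for Trincr1-/- ESCs. Mas1, which Airn overlaps, had group means of 0.0378 and 0.167 FPKM in 2i + LIF and of 0.792 and 0.865 FPKM in PD + LIF. Nespas, antisense to Gnas, had group means of 1.01 to 1.29 FPKM while Gnas ranged from 57.0 to 229.6 FPKM.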
